A study of Mus musculus with 24 samples.

Results

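The 8 genes described here, out of 55401 genes in the files, are the naive lymphocyte genes S1pr1, Klf2, Btla, Tcf7 (which encodes TCF-1), Lef1, Il7r, Ccr7 and Arhgap45, taken from a list by gene symbol. The estimated counts of their transcripts were summed per gene. Naive B and T lymphocytes circulate between blood, lymphoid organs and lymph in a resting state, and a small set of genes is known for serving that traffic and that rest. The chemokine receptor CCR7 guides the cells into lymph nodes and Peyer's patches, and the sphingosine 1-phosphate receptor S1PR1 guides them out again. The transcription factor KLF2 is known to sustain S1pr1 expression and quiescence, TCF-1 and LEF1 are transcription factors of naive and memory T cells, the interleukin-7 receptor maintains naive T cells, and BTLA is an inhibitory receptor of B and T cells. After triggering of the T cell receptor, naive T cells are known to lower several of these genes for a time. Arhgap45 encodes a GTPase-activating protein of blood cells.

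The libraries were bulk RNA sequencing libraries made by the SMART-seq2 protocol from male C57BL/6 mice aged 11 weeks. The groups were propyzamide-treated mice without stimulation, vehicle-treated mice without stimulation, propyzamide at 3 h after anti-CD3, vehicle at 3 h, propyzamide at 24 h and vehicle at 24 h, with 4 libraries each and 24 in all. Propyzamide is a herbicide that disrupts plant microtubules, the vehicle was empty, and anti-CD3 is an antibody to a part of the T cell receptor that sets off signalling. The series title speaks of T cells in a preclinical model of inflammatory bowel disease, but the sources used here give no tissue, no sort of cells, no dose and no protocol of treatment. Nothing in the labels says whether the libraries of a group came from separate animals, so p-values measure only the spread between these libraries, which may be technical.

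Depth differed between libraries. Total estimated counts were 438750 to 2072033 in 23 libraries and 9812458 in propyzamide 24 h replicate 3, which also held 30.6% of its counts in named protein-coding genes, against 3.81% to 9.89% in the other 23. That library stands apart and carries between 48.65% and 77.92% of the counts of each of the 8 genes, so results are also given without it and without the shallowest library, propyzamide 3 h replicate 3. The i5 index in the library names was one in vehicle at 3 h and all unstimulated libraries, and another in propyzamide at 3 h and all libraries at 24 h. The labels do not call it a batch, and for 24 h against unstimulated the index and the stage cannot be told apart. The same holds for 24 h against 3 h with vehicle and for 3 h against unstimulated with propyzamide, and at 3 h the index and the treatment cannot be told apart, so the means over both treatments and the interactions that involve 3 h contain this overlap in part or whole. Levels between libraries are CPM (counts scaled to a common library size) after TMM normalization, and a gene was called when its Benjamini-Hochberg adjusted p in edgeR's quasi-likelihood test was 0.05 or less over all 3799 genes that passed a filter on low counts.

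Marker lists were used to see which cell types the libraries held. All 16 T cell markers and all 12 B cell markers were detected somewhere in the 24 libraries. Detection asked only for some count over all libraries, the deepest included. It shows that transcripts of both cell types were present, and it does not test whether the cells were naive. The CD3 chain gene Cd3e was low in every group, with 334 counts in propyzamide and 16 in vehicle libraries at 24 h, and 6 or fewer in each of the other 4 groups. These counts are not scaled for depth, and the propyzamide group at 24 h holds the deepest library, so they do not compare levels between groups. The 17 intestinal epithelial markers summed to 736.4 to 1726 CPM in unstimulated propyzamide libraries and to 689.8 to 994.1 CPM in unstimulated vehicle libraries, above the T cell markers at 31.9 to 48.74 CPM with propyzamide and 24.35 to 50.82 CPM with vehicle. In bulk RNA, fewer cells of a type and less RNA per cell cannot be told apart.

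The genes lie on GRCm38 as follows. S1pr1 (ENSMUSG00000045092.8) is at chr3:115710433-115715072 on the minus strand, and Lef1 (ENSMUSG00000027985.14) is on the same chromosome at chr3:131110471-131224356 on the plus strand. Ccr7 (ENSMUSG00000037944.8) is at chr11:99144196-99155077 and Tcf7 (ENSMUSG00000000782.16) at chr11:52252371-52283014, both on the minus strand. Klf2 (ENSMUSG00000055148.7) is at chr8:72319033-72321656, Btla (ENSMUSG00000052013.15) at chr16:45224315-45257670 and Arhgap45 (ENSMUSG00000035697.14) at chr10:80016653-80031472, all on the plus strand. Il7r (ENSMUSG00000003882.5) is at chr15:9505788-9530176 on the minus strand.

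Promoter windows of 300 bases, 250 before and 50 after the annotated start, were available from RefSeq on GRCm38.p6 for 6 of the 8 genes. They are shown for Arhgap45, Btla and Tcf7 because these genes were called higher at 24 h than at 3 h after anti-CD3. CACCC, the core of the sequence that Krüppel-like factors such as KLF2 bind, and its reverse complement GGGTG are in capitals. Where RefSeq gave several windows, the one nearest the gene's annotated start was taken. For Tcf7 there were 2 windows. In the one taken, an open reading frame begins with atg before the annotated start and runs to the end of the window. Much of that window may thus be coding sequence, and its matches need not lie in a promoter. The windows read along each gene's own strand, which is minus for Tcf7, and lie at chr10:80016422-80016721, chr16:45224087-45224386 and chr11:52282965-52283264.
Arhgap45: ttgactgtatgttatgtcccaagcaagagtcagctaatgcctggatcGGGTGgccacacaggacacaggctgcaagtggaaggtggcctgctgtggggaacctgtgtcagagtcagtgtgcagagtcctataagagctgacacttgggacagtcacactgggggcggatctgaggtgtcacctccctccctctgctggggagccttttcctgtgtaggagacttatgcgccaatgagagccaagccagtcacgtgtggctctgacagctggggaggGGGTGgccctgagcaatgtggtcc
Btla: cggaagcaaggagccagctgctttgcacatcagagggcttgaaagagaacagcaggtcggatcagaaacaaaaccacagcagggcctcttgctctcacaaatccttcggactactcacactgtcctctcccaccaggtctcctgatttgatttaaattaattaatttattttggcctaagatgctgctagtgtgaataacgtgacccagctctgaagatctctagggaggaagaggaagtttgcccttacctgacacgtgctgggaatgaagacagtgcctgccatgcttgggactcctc
Tcf7: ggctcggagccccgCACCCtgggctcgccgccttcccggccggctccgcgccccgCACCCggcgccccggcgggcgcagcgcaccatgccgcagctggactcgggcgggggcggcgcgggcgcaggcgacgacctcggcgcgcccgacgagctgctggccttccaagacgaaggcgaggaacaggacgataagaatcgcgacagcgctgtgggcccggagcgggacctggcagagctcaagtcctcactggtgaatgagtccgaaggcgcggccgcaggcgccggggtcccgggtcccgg
The motif, searched on both strands, occurred 2 times in the Arhgap45 window, 2 times in the Tcf7 window and not in the Btla window. Among the other members Lef1 had 3 matches, Klf2 1 and Il7r 0. The motif is common, since 18895 of 32851 promoter windows (57.5%) hold it, and a match is not a binding site.

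Ccr7 was by far the most abundant of the 8 genes per unit of length. As TPM rescaled to the same total over named protein-coding genes, its median over the 24 libraries was 632.4, against 52.59 for Arhgap45, 27.71 for S1pr1, 24.88 for Btla, 19.67 for Il7r, 19.54 for Klf2, 13.76 for Tcf7 and 5.98 for Lef1. Ccr7 led the other members in 23 of 24 libraries, and in the remaining one, propyzamide 3 h replicate 3, it had no count. Arhgap45 exceeded S1pr1 in 18 libraries and was below it in 5, and S1pr1 exceeded Btla in 17 and was below it in 6. Btla and Il7r, and Il7r and Klf2, did not separate, with the first gene higher in 12 and 10 libraries and lower in 11 and 12. Klf2 exceeded Tcf7 in 13 libraries and Tcf7 exceeded Lef1 in 13, so the order of the lower members rests on few counts.

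Of the 8 genes 5 passed the filter, which asked for at least 9.27 CPM before TMM in 4 libraries. Klf2 reached that level in 2 libraries, Il7r in 1 and Lef1 in 1. Tcf7 passed through 4 libraries that were all from 24 h, Btla through 5 libraries at 24 h and 1 unstimulated library, and S1pr1 through 7, 1 and 2 libraries at 24 h, at 3 h and without stimulation. Without the libraries at 24 h, Tcf7, Btla and S1pr1 would have fallen short of 4 libraries, while Arhgap45 and Ccr7 would still have passed. A gene that passes only through the stage where it is high had to differ there, so the share of these genes called is no result about the set. This limit bears on the calls of Tcf7, Btla and S1pr1 at 24 h.

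**Figure D1:**
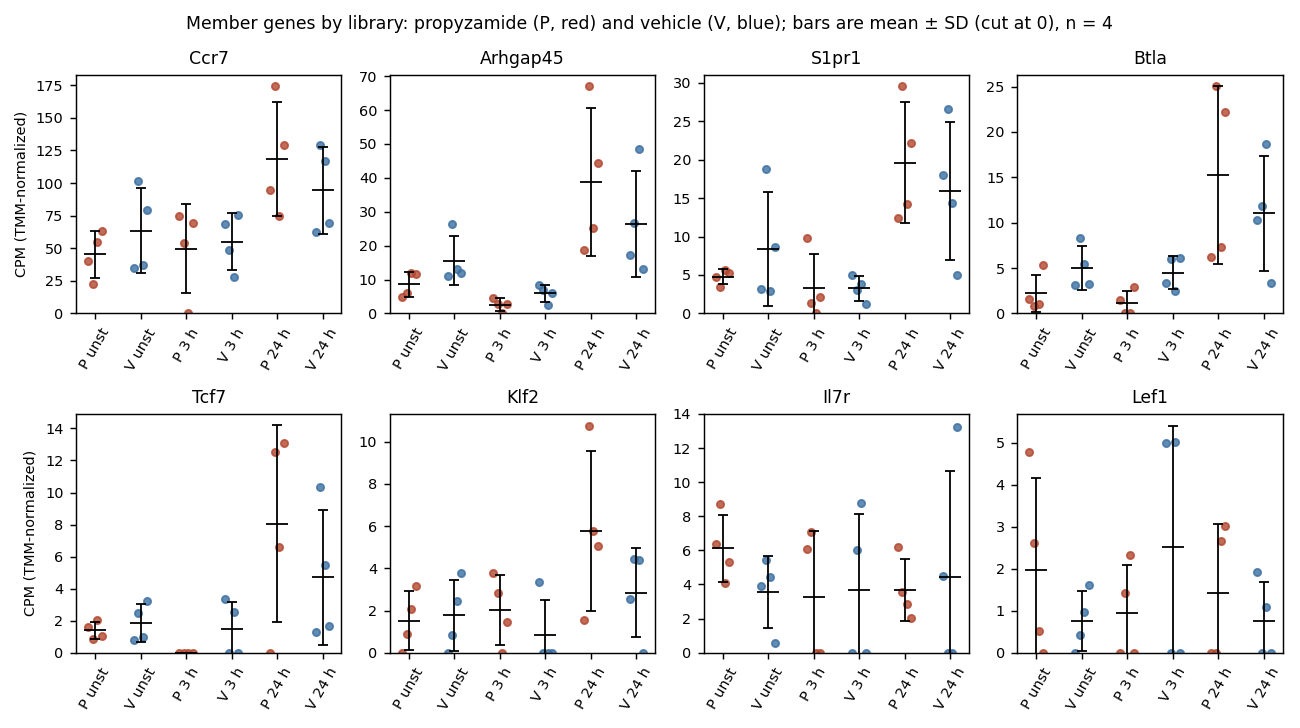
TMM-normalized CPM of the 8 genes in each library (points), with mean and SD of 4 libraries per group (black). Within each stage (unst, unstimulated) propyzamide (P, red) stands left of vehicle (V, blue), and the axes differ between genes. Within each treatment the group means of Arhgap45, S1pr1, Btla and Ccr7 are highest at 24 h after anti-CD3.

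Between 3 h and 24 h after anti-CD3, Arhgap45, S1pr1 and Btla rose over the mean of both treatments, and Ccr7 was not called. Tcf7 was also called higher at 24 h, but it had entered the test only through libraries at 24 h. Btla and S1pr1 also needed libraries at 24 h to enter it, so their adjusted p after the filter are descriptions too. In the fit without the filter S1pr1 (adjusted p = 0.00102, edgeR) and Btla (adjusted p = 0.00608, edgeR) were called. Of all 3799 genes tested, 22.8% were called in this comparison and 14% were called higher, so rises between these times were common. All 4 calls held in each of the 24 alternative fits, including each of the 16 that left out 1 library of the stages compared. Except for the fit without the filter, these took the genes that had passed it with all 24 libraries. For Tcf7, Btla and S1pr1 they thus share the limit of the filter. Over named protein-coding genes alone, 7.59% of genes were called higher. There the log2 fold changes were 2.49 ± 0.38 for Arhgap45, 1.87 ± 0.45 for S1pr1 and 1.86 ± 0.49 for Btla, lower than over all genes tested.

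Arhgap45 showed the clearest difference. It had 18.7, 67.1, 25.2 and 44.4 CPM in propyzamide libraries at 24 h and 17.3, 26.6, 48.4 and 13.2 CPM in vehicle libraries at 24 h. At 3 h it had 4.55, 2.84, 0 and 2.92 CPM with propyzamide and 8.33, 6.77, 2.52 and 6.11 CPM with vehicle. These levels rest on 12 counts with propyzamide and 21 with vehicle. Every library at 24 h was above every library at 3 h, which was so for 1.68% of genes in the higher direction. The log2 fold change was 2.92 ± 0.40 (SE; adjusted p = 3.7e-05, edgeR).

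S1pr1, the egress receptor, had 12.4, 29.5, 14.2 and 22.2 CPM with propyzamide at 24 h and 17.9, 26.6, 14.3 and 4.97 CPM with vehicle at 24 h. At 3 h the propyzamide libraries held 9.86, 1.42, 0 and 2.19 CPM and the vehicle libraries 4.996, 3.01, 3.77 and 1.22 CPM. These levels rest on 17 counts with propyzamide, 13 of them in replicate 1, and on 11 counts with vehicle. The propyzamide groups did not overlap, as was so for 12% of tested genes in the higher direction, and among vehicle libraries 1 at 24 h lay just below the highest at 3 h. The log2 fold change over both treatments was 2.30 ± 0.48 (adjusted p = 0.00256, edgeR).

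Btla, the inhibitory receptor, had 6.22, 25.1, 7.38 and 22.2 CPM with propyzamide at 24 h and 10.2, 11.8, 18.7 and 3.31 CPM with vehicle at 24 h. At 3 h it had 1.52, 0, 0 and 2.92 CPM with propyzamide and 3.33, 6.02, 2.52 and 6.11 CPM with vehicle. Libraries of the propyzamide groups did not overlap, a pattern shared by the same 12% of tested genes, while vehicle 24 h replicate 4 lay within the range of vehicle at 3 h. The levels at 3 h rest on 6 counts with propyzamide and 17 with vehicle. The lowest propyzamide library at 24 h and the highest at 3 h held 4 counts each, so their gap in CPM comes from depth. The log2 fold change over both treatments was 2.29 ± 0.50 (adjusted p = 0.00374, edgeR).

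Tcf7 was at 0 in all 4 propyzamide libraries at 3 h and in 2 of 4 vehicle libraries at 3 h, where the others had 3.33 and 2.52 CPM. At 24 h it had 0, 12.5, 6.58 and 13.1 CPM with propyzamide and 1.28, 10.4, 5.50 and 1.66 CPM with vehicle. Its adjusted p of 0.00868 in edgeR is given as a description, since a gene that passed the filter through 24 h libraries alone had to differ there, and a fitted fold change is not given because 1 group had no count. The pooled level with propyzamide at 24 h was 8.67 times a floor of 3 counts over that group (0.785 CPM), from 267 counts. Without the deepest library it was 12.5 times that floor, from 27 counts. Counting error alone put the pooled level at 6.02 to 7.67 CPM with all 4 libraries and at 6.47 to 14.3 CPM without the deepest (95% Poisson limits). In vehicle libraries the comparison rested on 15 counts at 24 h against 4 at 3 h. The floor covers counting error at 3 h only, so these ratios are not lower bounds, and neither the floor nor the limits cover the spread between libraries.

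Ccr7, the entry receptor, had 94.9, 174.5, 75.0 and 129.2 CPM with propyzamide at 24 h and 62.2, 128.8, 116.7 and 69.5 CPM with vehicle at 24 h. It had 75.1, 54.0, 0 and 69.4 CPM with propyzamide at 3 h and 68.3, 48.9, 27.7 and 75.7 CPM with vehicle at 3 h. The stages overlapped in both treatments, and the log2 fold change of 0.99 ± 0.38 was not called (adjusted p = 0.056, edgeR). It was called in 4 of 24 alternatives, among them the fit without the shallowest and the deepest library. Over named protein-coding genes alone the log2 fold change was 0.59 ± 0.33 (adjusted p = 0.21, edgeR). Without the filter it was 0.96 ± 0.30 (adjusted p = 0.104, edgeR).

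The members outside the filter were fitted without it, and none was called. Klf2 had 1.56, 10.7, 5.76 and 5.05 CPM with propyzamide at 24 h and 2.56, 4.44, 4.40 and 0 CPM with vehicle at 24 h. At 3 h it had 3.79, 2.84, 0 and 1.46 CPM with propyzamide and 3.33, 0, 0 and 0 CPM with vehicle, so both pairs overlapped. Its log2 fold change over both treatments was 1.81 ± 0.75 (unadjusted p = 0.0158, adjusted p = 0.36 over 48267 genes, edgeR). Outside the deepest library Klf2 had 62 counts in all.

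Il7r averaged 3.67 ± 1.82 CPM with propyzamide and 4.43 ± 6.24 CPM with vehicle at 24 h, against 3.29 ± 3.82 CPM with propyzamide and 3.71 ± 4.43 CPM with vehicle at 3 h (SD, n = 4 each). Lef1 averaged 1.42 ± 1.65 CPM with propyzamide and 0.76 ± 0.93 CPM with vehicle at 24 h, against 0.94 ± 1.14 CPM with propyzamide and 2.51 ± 2.89 CPM with vehicle at 3 h. Their log2 fold changes over both treatments were 0.08 ± 0.59 for Il7r and 0.24 ± 0.87 for Lef1 (adjusted p = 0.9998 for each, edgeR without the filter). The stages overlapped in both treatments for both genes, and Lef1 had only 29.6 counts in 23 libraries.

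Within one treatment, 4 members were called with propyzamide and none with vehicle. With propyzamide, where 3 h and 24 h carry the same i5 index, Arhgap45 (3.68 ± 0.59, adjusted p = 0.00117), Btla (3.32 ± 0.75, adjusted p = 0.0101), S1pr1 (2.26 ± 0.65, adjusted p = 0.0264) and Tcf7 (adjusted p = 0.0178) were called higher at 24 h in edgeR. In that comparison 15.6% of genes were called and 8.42% called higher. Without the shallowest and the deepest library the calls of Arhgap45 and Btla remained, while Tcf7 (adjusted p = 0.0538) and S1pr1 (adjusted p = 0.077) were no longer called in edgeR, and 1.63% of all genes were. In a fit of these groups alone Arhgap45 was the 1 member called, along with 0.684% of all genes. The S1pr1 call held in 4 of 8 fits that left out 1 library.

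With vehicle no member was called, and only 2 of 3799 genes (0.0526%) were. DESeq2 called Arhgap45 and S1pr1 and 2.08% of all genes, and edgeR without the shallowest and the deepest library called Arhgap45 (adjusted p = 0.0401) and 1.05% of all genes. The log2 fold changes for 24 h against 3 h with vehicle were 2.16 ± 0.55 for Arhgap45 (adjusted p = 0.098, edgeR), 2.34 ± 0.70 for S1pr1, 1.27 ± 0.66 for Btla and 0.77 ± 0.53 for Ccr7. S1pr1 thus had nearly the same estimate with either treatment. The difference between the treatments in the change from 3 h to 24 h was tested as an interaction, and it was called for no member and no gene (adjusted p = 0.78 to 0.989 for the 5 members, edgeR; 236 genes had an unadjusted p under 0.05).

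**Figure D2:**
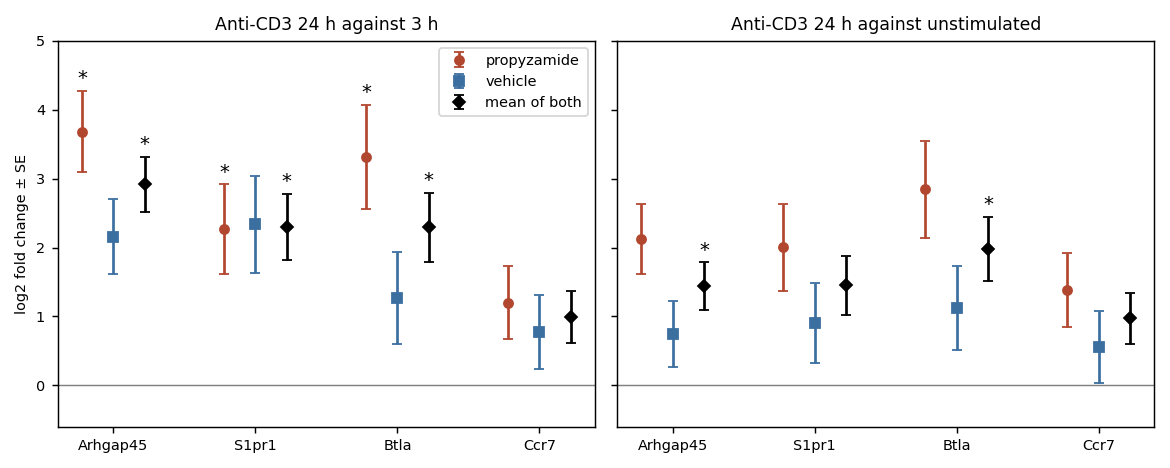
Log2 fold changes with their standard errors from edgeR for 4 members at 24 h after anti-CD3, against 3 h (left) and against unstimulated libraries (right), for propyzamide (red circles), vehicle (blue squares) and the mean of both (black diamonds). Stars mark an adjusted p of 0.05 or less. Estimates are above 0 throughout, and against unstimulated libraries the stars stand over Arhgap45 and Btla in the mean of both treatments.

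Against unstimulated libraries, 2 members were called higher at 24 h over the mean of both treatments. Btla rose by a log2 fold change of 1.98 ± 0.47 (adjusted p = 0.0132) and Arhgap45 by 1.44 ± 0.35 (adjusted p = 0.0156) in edgeR's test, where 2.84% of all genes were called and 1.68% called higher. Estimates for S1pr1 (1.45 ± 0.43, adjusted p = 0.0569), Ccr7 (0.97 ± 0.37, adjusted p = 0.155) and Tcf7 (1.84 ± 0.73, adjusted p = 0.168) did not pass. Without the shallowest and the deepest library 4 members were called, with Ccr7 (adjusted p = 0.0188) and S1pr1 (adjusted p = 0.0324) added, while 2.66% of genes were called higher. Leaving out vehicle 24 h replicate 3 or propyzamide 24 h replicate 2 left no member called. Nor was a member called in the fit without the filter. There Btla, which needed libraries at 24 h to pass the filter, had an adjusted p of 0.0539 (edgeR).

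Unstimulated levels show where the members started. Arhgap45 had 4.79, 6.09, 11.8 and 11.7 CPM in unstimulated propyzamide libraries and 10.9, 26.2, 13.2 and 11.9 CPM in unstimulated vehicle libraries. Btla had 1.60, 0.87, 1.03 and 5.30 CPM with propyzamide and 3.13, 8.33, 5.40 and 3.25 CPM with vehicle. Both lay below all propyzamide libraries at 24 h when propyzamide libraries were compared, but overlapped the 24 h libraries with vehicle.

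S1pr1 had 4.79, 3.48, 5.64 and 5.30 CPM in unstimulated propyzamide libraries and 3.13, 18.7, 2.94 and 8.66 CPM in unstimulated vehicle libraries. Ccr7 had 39.9, 22.6, 54.9 and 63.6 CPM with propyzamide and 35.2, 101.6, 37.3 and 79.5 CPM with vehicle. In propyzamide libraries S1pr1, Btla, Ccr7 and Arhgap45 were each higher in all 4 at 24 h than in all 4 without stimulation, a pattern that 4.45% of genes had. In vehicle libraries none of the 8 was. Within each treatment alone, no member was called for 24 h against unstimulated, where 0.079% of genes with propyzamide and 0.5% with vehicle were.

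Between the unstimulated stage and 3 h, 1 member was called. Over the mean of both treatments Arhgap45 was called lower at 3 h, by a log2 fold change of -1.48 ± 0.41 (adjusted p = 0.0469, edgeR), and 2.32% of genes were called with 1.84% lower. The call was lost in 11 of 16 fits that left out 1 library. Its libraries at 3 h were all below the unstimulated ones within each treatment, as were those of 5.03% of genes with propyzamide and 3.69% with vehicle. Tcf7 shared this pattern with propyzamide, with 1.60, 0.87, 2.05 and 1.06 CPM unstimulated and no count at 3 h, but the difference was not called. The unstimulated levels are only 1, 1, 4 and 1 counts, so this pattern is no measure of a fall. Of the markers of lymphocytes, the T cell gene Lck (-1.66 ± 0.39) and the B cell gene Ighd (-1.53 ± 0.39) were also called lower at 3 h over both treatments, and their part in the result was not tested. Summed T cell markers averaged 41.8 CPM unstimulated and 28.9 CPM at 3 h with propyzamide, but 37.0 and 36.1 CPM with vehicle. The B cell sums averaged 161.9 and 81.0 CPM with propyzamide and 160.8 and 101.5 CPM with vehicle. No member was called within one treatment, against 0.763% of genes with propyzamide and 0.316% with vehicle.

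No difference between propyzamide and vehicle was detected for these genes. No member and no other gene was called for propyzamide against vehicle without stimulation, at 3 h, at 24 h or over the mean of the 3 stages, while 128, 116, 374 and 324 genes had an unadjusted p under 0.05 in edgeR. DESeq2 also called no member. In unstimulated libraries the log2 fold changes of propyzamide against vehicle were -1.31 ± 0.73 for Btla, -0.82 ± 0.50 for Arhgap45, -0.82 ± 0.63 for S1pr1, -0.49 ± 0.53 for Ccr7 and -0.41 ± 1.10 for Tcf7. At 24 h they were 0.42 ± 0.59 for Btla, 0.55 ± 0.47 for Arhgap45, 0.28 ± 0.57 for S1pr1, 0.33 ± 0.52 for Ccr7 and 0.85 ± 0.96 for Tcf7. The estimates were below 0 for all 5 without stimulation and above 0 for all 5 at 24 h, yet the interaction of propyzamide and anti-CD3 at 24 h was called for none (adjusted p = 0.9999 for each, edgeR; 94 genes had an unadjusted p under 0.05). The standard errors leave room for sizeable differences in either direction.

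Other genes of lymphocyte traffic and rest, from lists that share no gene with the 8 members, moved in the same comparison. Of 24 trafficking genes 16 were tested, and 7 were called higher at 24 h than at 3 h over both treatments and none lower, where 14% of all genes tested were called higher. Among these 7 were Rac2 (log2 fold change 1.60 ± 0.30), a small GTPase of blood cells, Dock2 (2.41 ± 0.53), which activates Rac, Coro1a (1.72 ± 0.38), an actin regulator, Cytip, Itgb7 and Arhgef1. These lists and the marker lists were not tested as sets. Their genes went through the same filter, and some may have passed through libraries at 24 h. The shares called among the list genes tested are thus descriptions, and no result about the lists. The median of the 16 was 0.96, against near 0 over all genes tested and 0.45 over named protein-coding genes tested. Cd69, which retains S1PR1 inside activated cells, was tested and not called (0.26 ± 0.36, adjusted p = 0.62, edgeR).

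Of 26 quiescence genes 13 were tested and 5 were called higher at 24 h than at 3 h, with a median of 1.12. They were the transcription factors Ets1 (1.90 ± 0.34), Foxp1 (1.95 ± 0.37) and Satb1, the glucocorticoid-induced Tsc22d3 (1.26 ± 0.37) and the antiproliferative Btg2 (1.14 ± 0.35). Of 24 activation genes 9 were tested and 2 were called higher, the inhibitory receptor Lag3 (2.26 ± 0.47) and the immediate early gene Egr1 (0.999 ± 0.34), with a median of 0.41. With library sizes and tests over named protein-coding genes alone, whose own median was then 0.03, the medians were 0.55 for trafficking, 0.72 for quiescence and 0.02 for activation. The calls then were 5 higher for trafficking, 2 higher and 1 lower for quiescence and 1 higher for activation.

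Against unstimulated libraries fewer trafficking and quiescence genes were called. Over both treatments 2 of 16 trafficking genes (among them Rac2, 1.07 ± 0.29) and 2 of 13 quiescence genes (Ets1, 1.24 ± 0.32, and Foxp1, 1.26 ± 0.34) were called higher at 24 h. Over all genes tested 1.68% were called higher in that comparison. Of the 9 activation genes 3 were, with Lag3 at 3.35 ± 0.49 and the granzymes Gzmb and Gzma at 3.44 ± 0.54 and 2.32 ± 0.55. At 3 h Gzmb was already higher than in unstimulated libraries (3.15 ± 0.54), and no trafficking or quiescence gene was called.

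Markers of B and T cells moved with the members. The 12 B cell markers summed to 218.4 to 451.1 CPM with propyzamide and 185.4 to 340.6 CPM with vehicle at 24 h, against 16.3 to 127.8 CPM with propyzamide and 75.45 to 114.9 CPM with vehicle at 3 h. Of the 11 tested, 7 were called higher at 24 h than at 3 h, against 14% of all genes, among them Ighd (2.51 ± 0.39), Cd79b, Cd79a, Fcmr, Bank1 and Cd22. The 16 T cell markers summed to 71.59 to 163.8 CPM with propyzamide and 57.02 to 97.73 CPM with vehicle at 24 h, against 20.46 to 47.76 CPM with propyzamide and 23.32 to 46.63 CPM with vehicle at 3 h. Lck (2.62 ± 0.38) and Trbc2 (3.05 ± 0.73) were called among the 5 tested. The limit of the filter on low counts bears on these shares too. No B cell marker was at 0 over a whole group, and of the T cell markers only Lat was, in vehicle at 3 h.

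**Figure D3:**
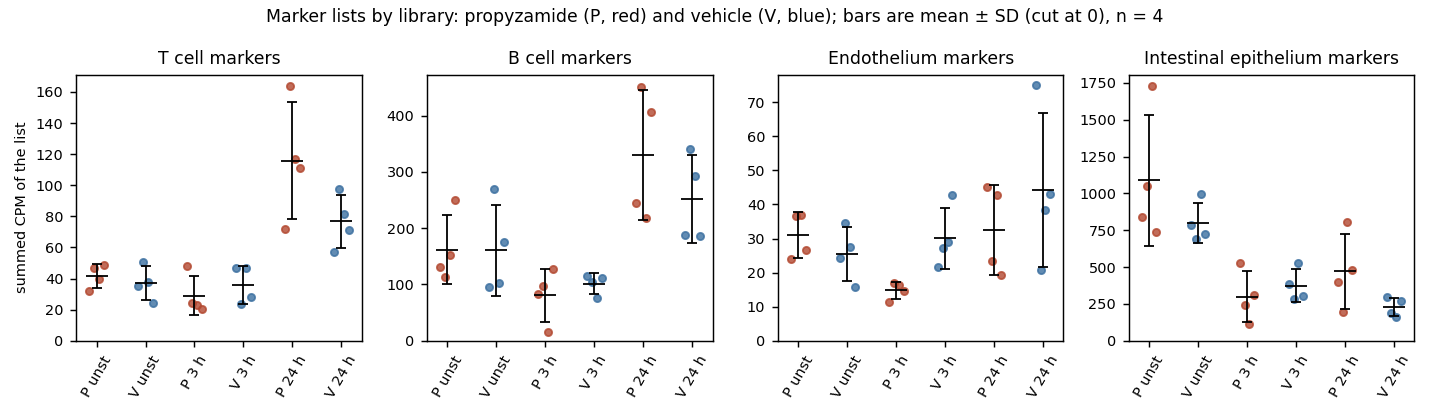
Summed CPM of the T cell, B cell, endothelial and intestinal epithelial marker lists in each library (points), with mean and SD of 4 libraries (black), for propyzamide (P, red) and vehicle (V, blue) at each stage (unst, unstimulated). The T and B cell sums are highest at 24 h after anti-CD3, where no library overlaps those at 3 h, and the epithelial sum is highest without stimulation.

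Macrophage genes C1qa and C1qb were also called higher at 24 h than at 3 h, among 5 tested. Of 14 epithelial markers tested, 1 (Olfm4) was called lower at 24 h than at 3 h, and 8 were called lower at 24 h than in unstimulated libraries. In the comparison with unstimulated libraries the plasma cell genes Jchain (-2.01 ± 0.38) and Igha (-1.86 ± 0.44) were called lower, and no T cell or B cell marker was called, with medians of 1.72 over the 5 T cell and 0.83 over the 11 B cell markers tested. The 9 endothelial markers, a cell type in which S1pr1 is also strong, summed to 19.17 to 45.13 CPM with propyzamide and 20.73 to 74.96 CPM with vehicle at 24 h, against 11.37 to 17.04 CPM with propyzamide and 21.65 to 42.76 CPM with vehicle at 3 h. The part that any of these marker shifts had in the differences of the members was not tested.

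Among 2490 named protein-coding genes, the one most like Arhgap45 over the 24 libraries was the B cell gene Ighd (Spearman correlation 0.925), followed by Ddx24 (0.883). Btla was most like Arhgap45 itself (0.87) and then Iqgap1 (0.824), and Ccr7 was most like H2-DMb2 (0.874), a class II antigen presentation gene, and Ppp1r16b (0.873). S1pr1 was most like Unc93b1 (0.908) and Shisa5 (0.883), and Tcf7 was most like Arpc2 (0.855) and Slc25a4 (0.807). Among the members S1pr1 and Arhgap45 had a Spearman correlation of 0.816, and Tcf7 and Ccr7 the lowest at 0.502. These values describe libraries that share stage and depth, and without the deepest library they moved little, to 0.793 and 0.493 for those pairs.

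The split of counts between transcript models differed between the deepest and the other libraries. Levels given here are sums over all models of a gene. Outside the deepest library 84.5% of Il7r counts lay in the model Il7r-204 and 7.62% in Il7r-201, while in the deepest library 92.6% lay in Il7r-201 and 0.772% in Il7r-204. Both models encode protein, and each shares 111 stretches of 31 bases, about 3.2% of its own, with transcripts of 3651 other genes. Lef1-205, a retained intron model, held 63.3% of Lef1 counts in the 23 libraries and 37.3% in the deepest. Lef1-201, Lef1-202 and Lef1-204 share 34.3% to 35.6% of their stretches with other genes, chiefly Gm43352, so the counts of Lef1 and of this gene may be split between them and its level is uncertain. Arhgap45-203 held 15.8% of Arhgap45 counts in the 23 libraries and 43.7% in the deepest, and Arhgap45-201 held 18.7% in the 23 libraries and none in the deepest.

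**Figure D4:**
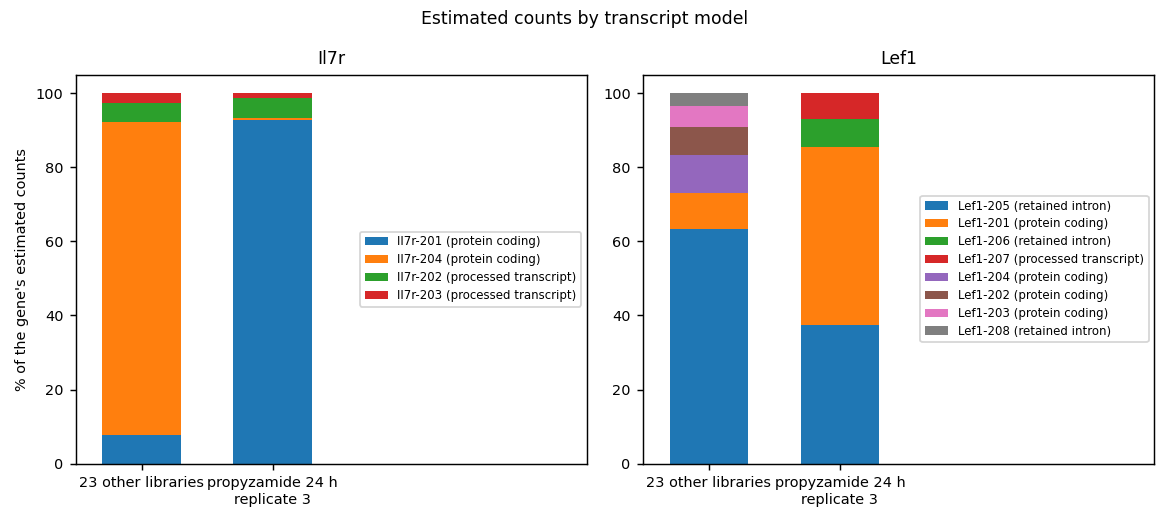
Share of the estimated counts of Il7r (left) and Lef1 (right) in each transcript model, summed over 23 libraries and in propyzamide 24 h replicate 3, the deepest library. Il7r-204 holds 84.5% of Il7r counts in the 23 libraries, and Il7r-201 holds 92.6% in the deepest.

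The other members shared little sequence with other genes. Ccr7, Klf2, Btla and Arhgap45 share no stretch of 31 bases with another gene, nor do the searched models of Tcf7, and S1pr1 shares 0.365%. Tcf7 and Lef1 encode related proteins, but the longest run of bases common to Tcf7-201 and Lef1-201 is 17 (bases 699 to 715 of Tcf7-201 and 1980 to 1996 of Lef1-201).
Tcf7-201 and Lef1-201: atcaaccagatcctggg
This run is shorter than the stretches of 31 bases compared above.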

How the data were processed

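Libraries were quantified with kallisto on GRCm38, per the submitters' processing notes, with no version stated. The authors deposited expected counts (estimated counts per transcript, not whole), TPM and effective transcript lengths (class other, in bases) for 142604 transcripts, per the file headers. Here expected counts were summed to 55401 genes and rounded. Testing used edgeR 4.0.16 under R 4.3.3 (filterByExpr, TMM, 1 coefficient per group over 24 libraries, quasi-likelihood F test, two-sided, Benjamini-Hochberg over 3799 genes, called at 0.05). The common biological coefficient of variation was 46.2%. The script was tested on simulated counts with known changes. Total counts were 438750 to 2072033 in 23 libraries and 9812458 in the deepest.

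Alternatives were RLE normalization, no filter, DESeq2 1.42.0, only the groups compared, named protein-coding genes only, limma-trend (limma 3.58.1) on log2(TPM + 1), and fits without 1 library each. Leaving out the shallowest and the deepest library together was added after seeing the data. The labels do not number the replicates, so they were numbered by accession order. The members and lists were chosen with earlier results of these data known, so no p was adjusted over a list. Named genes are the members, the 2 genes most like each tested member, and up to 4 companion genes per list with the smallest p; Cytip, Itgb7, Arhgef1, Satb1, Cd69 and the called cell type markers beyond that were named after their values were seen. Genes whose symbol is only a model or clone number are not counted as named protein-coding genes. Nor are genes whose symbol begins with mt- (mitochondrially encoded), Olfr or Vmn. Gene positions come from GENCODE M21 and promoter windows from RefSeq on GRCm38.p6; protein sequences were not used here. Some genes of the companion and marker lists that these rules take are counted but not reported by name here.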

Additional observations from a re-analysis of the deposited data

Results flagged for a closer look

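Of 47 sets of 4 libraries examined, 3 had 1 library far from the other 3, and chance alone marks about 1 in 20. Btla in unstimulated propyzamide libraries had 5.30 CPM in replicate 4, against 0.87 to 1.60 CPM in the other 3. These are 5 counts against 1, 1 and 2. Klf2 in vehicle libraries at 3 h had 3.33 CPM in replicate 1, from only 2 counts, and no count in the other 3. Arhgap45 in unstimulated vehicle libraries had 26.2 CPM in replicate 2, against 10.9 to 13.2 CPM in the other 3.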

How the results depend on the processing

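The 4 members called higher at 24 h than at 3 h over both treatments were called in all 24 alternatives. Except for the fit without the filter, the alternatives took genes that had passed it with all 24 libraries, so they share its limit. With propyzamide alone 4 members were called, against 1 when just those groups were fitted, 2 without the shallowest and the deepest library, 5 by DESeq2, 5 with RLE, 3 without the filter, 3 over named protein-coding genes with or without those libraries, and 3 to 4 leaving out 1 library. With vehicle alone 0 were called, against 2 by DESeq2, 1 without those 2 libraries and 1 without them over named protein-coding genes. For 24 h against unstimulated over both treatments 2 were called, against 4 without those libraries, 4 without them over named protein-coding genes, 0 without the filter, 0 by limma-trend and 0 to 3 leaving out 1 library. With propyzamide 0 were called, against 2 by DESeq2, 2 without those libraries, 3 without them over named protein-coding genes, and 0 to 2 leaving out 1 library. For 3 h against unstimulated over both treatments 1 was called, against 0 without those libraries, without the filter, over named protein-coding genes with or without those libraries, and by limma-trend, and 0 to 1 leaving out 1 library. In that comparison 2 uncalled values changed sign. Btla had a log2 fold change of -0.76 to 0.13 leaving out 1 library, positive without propyzamide unstimulated replicate 4. Ccr7 had -0.17 to 0.15 leaving out 1 library, 0.14 without the shallowest and the deepest, 0.19 over named protein-coding genes and 0.36 with both changes. The causes were not tested.

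Over all genes, calls for 24 h against 3 h over both treatments numbered 868, with 325 to 1096 under other settings and 491 to 1071 leaving out 1 library. They were 594 with propyzamide (26 to 1044, and 203 to 888) and 2 with vehicle (0 to 79, and 0 to 2). For 24 h against unstimulated they were 108 over both (11 to 231, and 61 to 156), 3 with propyzamide (0 to 71, and 0 to 22) and 19 with vehicle (0 to 77, and 1 to 5). For 3 h against unstimulated they were 88 over both (30 to 164, and 66 to 113), 29 with propyzamide (5 to 78, and 0 to 43) and 12 with vehicle (7 to 57, and 2 to 8). For propyzamide against vehicle and the interactions they were 0 (0 to 64, the upper end without the filter, and 0 to 1). RLE moved the median log2 fold change of all genes for 24 h against 3 h over both treatments by 0.26, and 769 of 947 calls were then higher, against 531 of 868. No paired analysis was possible because the labels give the replicates no number. Klf2, Il7r and Lef1 did not pass the filter on low counts.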
